A study of Mus musculus with 4 samples.

Results

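The genes described here are 10 members of the gp130 and IL-12 cytokine families, among 50600 genes (21764 of them protein-coding) counted in mouse T cells. They were taken by name: the ligand gene Lif; the cytokine chain genes Ebi3, Il12a and Il23a; and the receptor chain genes Il6st, Il6ra, Il27ra, Il12rb1, Il12rb2 and Il23r. All 10 matched 1 gene of the table each. The data were 4 RNA-sequencing libraries of primary T cells from mice of the strain C57BL/6NJ, labelled as biological replicates 1 to 4 of a single cell type. The file headers call the cells activated in bulk, at 72 h, with sample names that begin mmTh0, and the linked cell protocol is titled for CD4+ T-cell differentiation. The assay is labelled as total RNA, whereas the linked library protocol is named for polyA+ RNA, so which RNA was selected is not settled and bears on levels compared between genes. The labels give no treatment, no age and no sex, and 1 donor identifier for all libraries. With no second group, levels within these cells and their spread between libraries are what could be measured.

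Cytokines of these families share chains. gp130, the protein of Il6st, is the signalling chain of the receptors for IL-6, IL-11, LIF, oncostatin M and IL-27, and the partner chain decides which ligand binds. The IL-12 family cytokines are pairs of chains secreted together: p35 (Il12a) with p40 (Il12b) makes IL-12, p19 (Il23a) with p40 makes IL-23, EBI3 with p28 (Il27) makes IL-27, and EBI3 with p35 makes IL-35, reported to signal through gp130 and IL-12Rβ2. Their receptors are also pairs: IL-12Rβ1 serves IL-12 with IL-12Rβ2 and IL-23 with IL-23R. In CD4 T cells IL-6 and IL-23 act mainly through STAT3 and are known for Th17 responses, and IL-12 acts mainly through STAT4 and is known for Th1 responses.

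The libraries held 49613182 to 94222415 counted fragments. All 8 T-cell markers had a TPM (counts per base of gene length, rescaled so that all genes of a library add up to the same sum) of at least 1 in every library, and their summed level was 7534 to 7802 TPM per library. Of the markers of other cells, 7 of 29 reached that level in every library. The summed level per library was 12.8 to 15.4 TPM for 7 myeloid markers (2 of them detected), 6.27 to 9.39 TPM for 6 dendritic cell markers (2), 3.54 to 5.28 TPM for 6 B-cell markers (1), 2.66 to 5.17 TPM for 4 natural killer markers (1) and 23.1 to 25.4 TPM for 6 stromal and endothelial markers (1, Pecam1). Siglech, Klra8 and Cdh5 had 0 counts in all libraries. Xist, transcribed from an inactive X chromosome, stood at 332 and 150.1 TPM in replicates 1 and 2. In replicates 3 and 4 it stood at 0.877 and 0.392 TPM. The Y-linked gene Ddx3y was split the other way. It stood at 0.0344 and 0.0834 TPM in replicates 1 and 2 and at 48.97 and 45.83 TPM in replicates 3 and 4. The shared donor identifier does not reflect that split. Each member is therefore given library by library.

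Of the 10 genes, 7 reached 1 TPM in every library (Ebi3, Lif, Il12rb1, Il27ra, Il6ra, Il6st and Il12rb2), beside 49.4% of all protein-coding genes. The genes were taken by name with earlier results known, so that share is the background and not a comparison. Their median of mean levels was 22.9 TPM, beside 1.21 TPM over all protein-coding genes and 34.8 TPM over the protein-coding genes at 1 TPM or more in every library. The levels ran from 332 TPM for Ebi3, rank 478 of 21764 protein-coding genes, down to 0.0749 TPM for Il12a, rank 13327. Il23a, Il23r and Il12a did not reach 1 TPM in every library. In bulk RNA, fewer cells with a transcript and less of it per cell cannot be told apart.

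**Figure D1:**
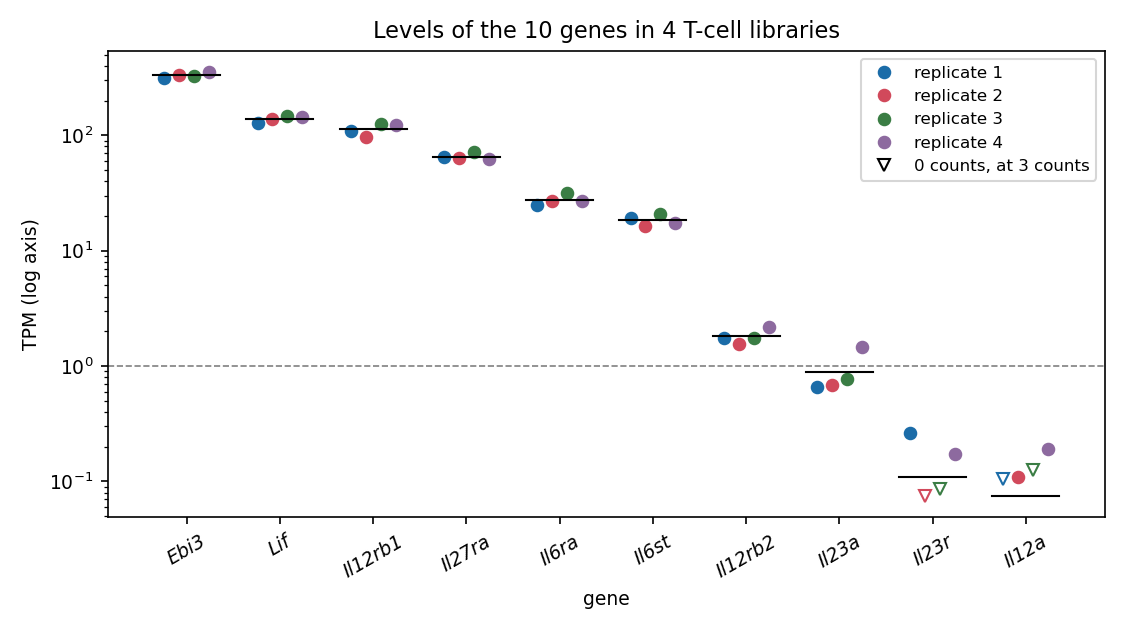
TPM of the 10 genes (log axis) in each of the 4 libraries, ordered by mean; horizontal bars are means over the 4 libraries with a count of 0 taken as 0 TPM, open triangles mark libraries with 0 counts and are drawn at the level of 3 counts, and the dashed line is 1 TPM. The points of Ebi3 sit between 314 and 354 TPM, and those of Il23r and Il12a at or below 0.264 TPM.

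**Figure D2:**
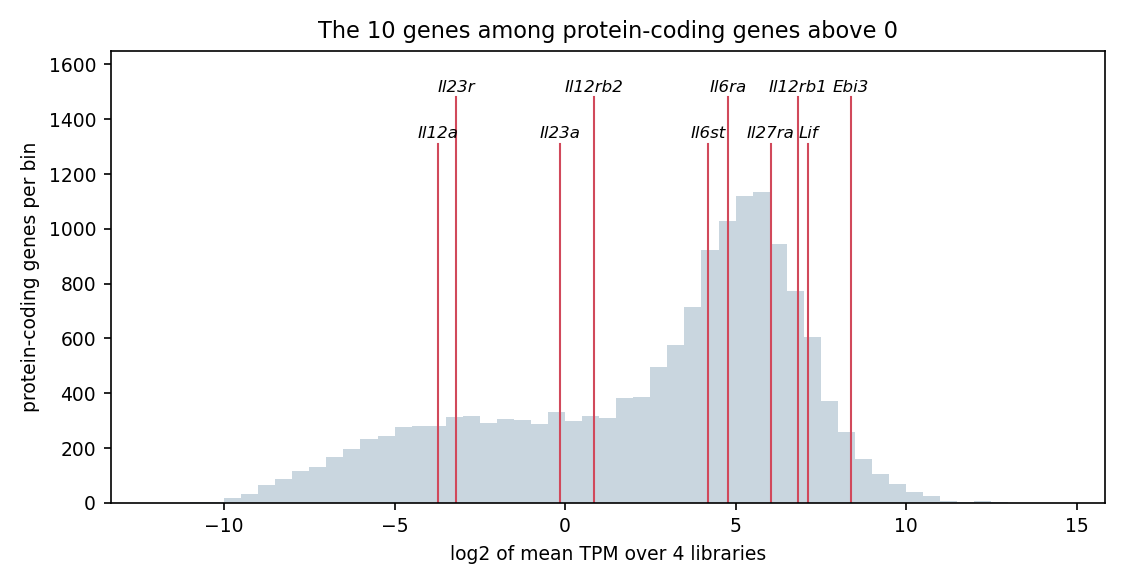
Histogram of the log2 of mean TPM over the 4 libraries for protein-coding genes above 0, in bins of width 0.5, with a red line for each of the 10 genes; the heights of the red lines only separate the names. Ebi3, Lif and Il12rb1 lie to the right of the main peak and Il12a and Il23r in the low shoulder.

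Promoter windows are shown for 5 members that lie far apart in level: Ebi3 and Il12a, whose products pair in IL-35; Lif; and Il12rb2 and Il23r, low receptor genes that neighbour each other. Each run is the 250 bases before the RefSeq start (build GRCm38.p6), 5′ to 3′ on the gene's own strand, with capitals marking matches, on either strand, to the motifs named after the sequences. The positions are chr17:55952373-55952622, plus strand, for Ebi3, chr3:68690394-68690643, plus strand, for Il12a, chr11:4257318-4257567, plus strand, for Lif, chr6:67376189-67376438, minus strand, for Il12rb2, and chr6:67491856-67492105, minus strand, for Il23r.
Ebi3: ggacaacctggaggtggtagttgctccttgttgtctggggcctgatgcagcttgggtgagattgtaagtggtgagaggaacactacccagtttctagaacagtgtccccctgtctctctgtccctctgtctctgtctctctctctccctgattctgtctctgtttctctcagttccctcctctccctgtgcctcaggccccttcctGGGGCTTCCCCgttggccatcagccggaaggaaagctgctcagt
Il12a: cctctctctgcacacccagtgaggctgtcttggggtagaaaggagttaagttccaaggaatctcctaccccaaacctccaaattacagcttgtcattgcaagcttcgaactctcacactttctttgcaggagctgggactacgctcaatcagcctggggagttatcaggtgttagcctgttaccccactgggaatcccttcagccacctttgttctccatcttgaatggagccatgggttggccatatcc
Lif: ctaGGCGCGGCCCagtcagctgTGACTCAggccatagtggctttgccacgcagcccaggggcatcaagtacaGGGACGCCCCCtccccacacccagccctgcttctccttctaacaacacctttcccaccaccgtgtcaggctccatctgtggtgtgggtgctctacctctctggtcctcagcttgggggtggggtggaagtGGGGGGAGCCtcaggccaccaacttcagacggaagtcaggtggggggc
Il12rb2: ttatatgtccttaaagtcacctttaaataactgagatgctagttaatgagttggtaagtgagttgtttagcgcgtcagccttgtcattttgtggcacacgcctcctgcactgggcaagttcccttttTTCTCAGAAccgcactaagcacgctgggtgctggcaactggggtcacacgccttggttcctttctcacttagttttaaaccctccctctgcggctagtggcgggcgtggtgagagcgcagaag
Il23r: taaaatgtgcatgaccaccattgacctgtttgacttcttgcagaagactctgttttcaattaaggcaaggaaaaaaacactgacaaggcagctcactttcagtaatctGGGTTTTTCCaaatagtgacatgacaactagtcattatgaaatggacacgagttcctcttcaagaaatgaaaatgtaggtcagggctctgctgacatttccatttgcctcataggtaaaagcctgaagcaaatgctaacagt

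The motifs searched were the NF-κB type (GGGNNNNNCC), the AP-1 type (TGANTCA), the STAT-binding GAS type (TTCNNNGAA), the TATA type (TATAAA) and the GC box (GGGCGG). They occur in 45.8%, 6.75%, 7.02%, 12.4% and 32.7% of all 32851 windows of that length in the table. Ebi3 held overlapping NF-κB-type matches that run from 44 to 34 bases before the start. The Il12a window shown held no match to any of the 5, and a second Il12a window further along the gene (chr3:68691174-68691423) held overlapping NF-κB-type matches and a GC box. Lif held NF-κB-type matches, some of them overlapping, and 1 AP-1-type match, TGACTCA, from 228 to 222 bases before the start. Il12rb2 held 1 GAS-type match, TTCTCAGAA, from 123 to 115 bases before the start, and Il23r 1 NF-κB-type match. A match is a run of letters and not a site in use, and the NF-κB type as written is found in close to as many windows as not. In base composition the windows also differed: G and C made up 39.6% of the Il23r window, 50.8% for Il12a, 56.0% for Ebi3 and 63.6% for Lif, beside a median of 52.4% over all windows. CpG dinucleotides ran from 1 in the Il23r window and 2 in that of Ebi3 to 10 in Il12rb2, 15 in the second Il12a window, 18 in Il6ra and 26 in Il6st. In all, 7 of the 10 members matched the table, and Il27ra, Il12rb1 and Il23a did not.

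Among the ligand chains, Ebi3 had the highest TPM of the 10 genes (chromosome 17, 55952623 to 55957021, plus strand, coordinates here and below in mm10). Ebi3 encodes the receptor-like chain shared by IL-27 and IL-35. Its level was 314, 330.0, 329 and 354 TPM in replicates 1 to 4, with a mean of 332 ± 16.3 TPM (SD, n = 4). The libraries lay close together: the highest, replicate 4, was 1.13 times the lowest, replicate 1. The chains that EBI3 pairs with were nearly absent from the same libraries. Il27, which encodes p28, had 0 counts in all 4 libraries. A floor of 3 counts, used here for libraries with 0, is 0.106 to 0.211 TPM by library. Against that floor, Ebi3 was at least 1561-fold higher than Il27 in replicate 3 and at least 3344-fold higher in replicate 4. Il12a (chromosome 3, 68690644 to 68698547, plus strand), which encodes p35, had 0, 3, 0 and 9 counts in replicates 1 to 4, or 0, 0.109, 0 and 0.190 TPM. Those 12 fragments correspond to an exact Poisson 95% interval of 0.0488 to 0.165 TPM over the 4 libraries together, which covers counting error only. In log2(TPM + 1), Ebi3 exceeded Il12a by 8.28 ± 0.07 (SD, n = 4), with the order the same in 4 of 4 libraries.

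B cells, macrophages and dendritic cells are known sources of EBI3, so their defining markers are given beside it. The macrophage lysozyme gene Lyz2 had a mean of 0.0136 TPM, the myeloid growth factor receptor gene Csf1r 0.0147 TPM, the dendritic cell integrin gene Itgax 0.00644 TPM and the B-cell gene Ms4a1 0.0938 TPM. Cd68, Adgre1, Zbtb46, Batf3 and Cd79b were above 1 TPM in every library, the highest of them Cd68 at 10.5 ± 0.880 TPM. Whether any of the Ebi3 counts came from such cells was not tested.

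Lif, the leukaemia inhibitory factor gene, was next by TPM (chromosome 11, 4257557 to 4272514, plus strand). Its level was 127, 139, 147 and 145.0 TPM in replicates 1 to 4, a mean of 140 ± 8.79 TPM (SD, n = 4). Replicate 1 was the lowest and replicates 3 and 4 were nearly equal. Its neighbour on the chromosome, Osm, which encodes oncostatin M, begins upstream of it on the same strand with 16.5 kb and no annotated gene between them. Osm stood at 44.5, 43.7, 47.0 and 47.4 TPM, a mean of 45.6 ± 1.79 TPM. The genes of the receptor chains that partner gp130 for these ligands were close to 0. Lifr, whose product binds LIF with gp130, had 0, 1, 1 and 5 counts, a mean of 0.00759 TPM, and in log2(TPM + 1) the level of Lif was above it by 7.12 ± 0.08 (SD, n = 4). Osmr, the oncostatin M receptor gene, stood at 0.0836, 0.0307, 0.107 and 0.0327 TPM.

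Il23a, the gene of the IL-23 chain p19, was low (chromosome 10, 128296139 to 128298752, minus strand). It had 25, 25, 24 and 91 counts, or 0.663, 0.689, 0.767 and 1.46 TPM, in replicates 1 to 4. Replicate 4 stood apart from the other libraries, and without it the mean was 0.706 TPM in place of 0.894 TPM. The p40 gene Il12b, which both IL-12 and IL-23 need, was not counted once in the 4 libraries. The floor of 3 counts is 0.110 TPM or lower in each. Against that floor, Il23a was at least 7.30-fold higher than Il12b in replicates 1 and 2 and at least 26.6-fold higher in replicate 4. With neither Il12b nor Il27 counted, 1 chain of each of IL-12, IL-23 and IL-27 was not detectable at this depth.

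The receptor chains for IL-6 and IL-27 were present in every library. Il27ra, the IL-27-specific chain (chromosome 8, 84030294 to 84042589, minus strand), stood at 64.3, 63.1, 70.9 and 61.9 TPM, a mean of 65.1 ± 4.02 TPM (SD, n = 4). Il6ra, the chain that binds IL-6 (chromosome 3, 89864059 to 89913196, minus strand), stood at 24.9, 26.8, 31.4 and 26.7 TPM, a mean of 27.5 ± 2.79 TPM. Il6st (chromosome 13, 112464070 to 112510086, plus strand) stood at 19.2, 16.3, 20.6 and 17.4 TPM, a mean of 18.4 ± 1.89 TPM. Replicate 3 was the highest of the 4 libraries for each of these genes. The shared chain was thus the lowest of the 3 in every library: Il27ra was 3.34 to 3.87 times Il6st, and Il6ra 1.30 to 1.64 times.

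In log2(TPM + 1), Il27ra lay 1.77 ± 0.08 above Il6st and Il6ra lay 0.55 ± 0.14 above it (SD, n = 4). Both rested on gene length, since Il6st has the long exon length of 11099 bases. In CPM (counts scaled to library size only, without length), Il27ra was 1.05 to 1.22 times Il6st and Il6ra 1.01 to 1.28 times. With library sizes also scaled by TMM factors (the edgeR normalization between libraries), the differences in log2(CPM + 1) were 0.16 and 0.21. With the longest protein-coding transcript in place of the deposited exon length the Il27ra difference was 1.81 and that of Il6ra 0.21. Over 13 partner pairs, the exact two-sided test that flips the signs of the 4 within-library differences gave 12 pairs the smallest p that 16 sign patterns allow (Benjamini-Hochberg adjusted p = 0.135), so no pair could pass a threshold of 0.05. The other, Il12a against Il12b, gave p = 0.5 in that exact test. The other receptor chains listed for the gp130 family were low, Lifr and Osmr as above and Cntfr with 4 counts in replicate 1 alone. Il31ra, a gp130-like chain that pairs with the oncostatin M receptor, had 0 counts in all libraries. Il11ra1, the IL-11 receptor gene, was the exception at 4.50 ± 0.231 TPM; mice carry a near-identical copy, Il11ra2, so reads shared between them could be missing from its count.

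**Figure D3:**
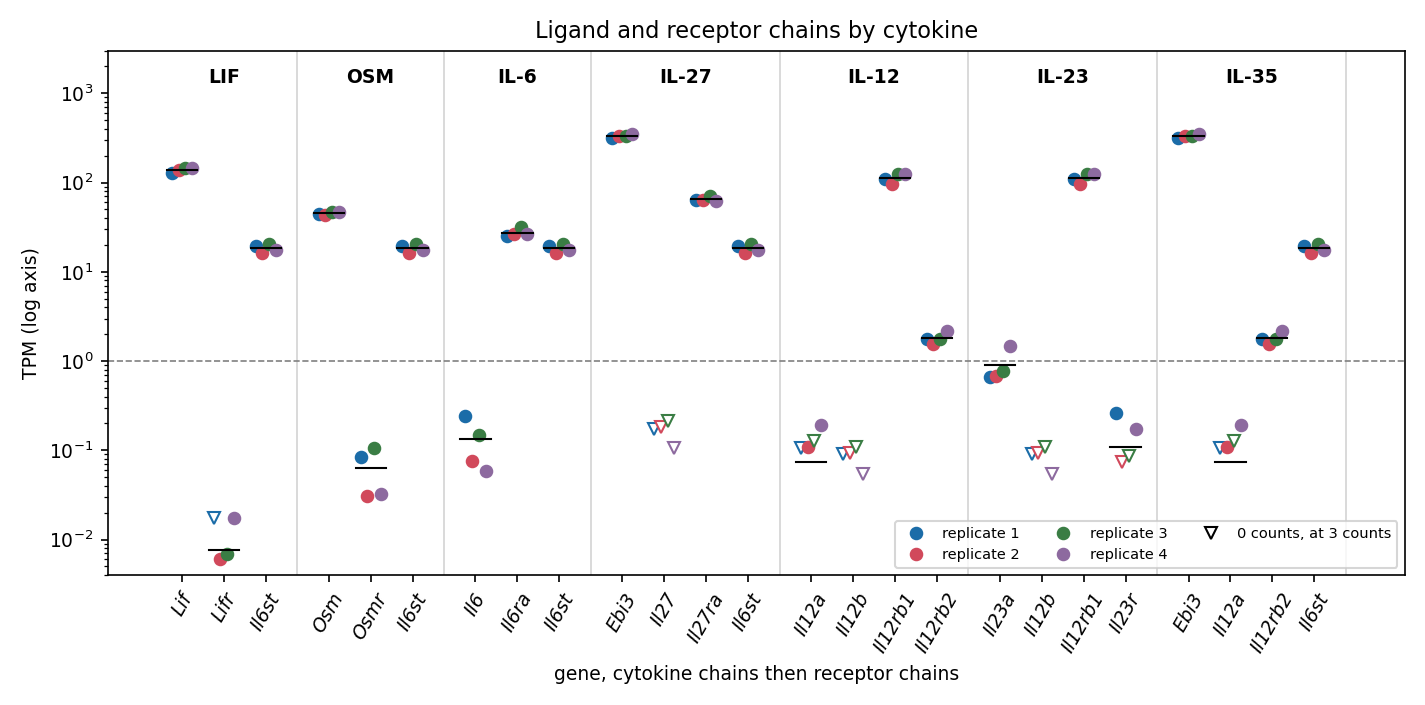
TPM (log axis) of the chains of 7 cytokines and their receptors in the 4 libraries, cytokine chains first and receptor chains after them; bars are means, open triangles mark 0 counts drawn at the level of 3 counts, and genes shared by several cytokines are repeated. The IL-6 and IL-27 receptor pairs lie above 16 TPM throughout, whereas the IL-12 and IL-23 receptor pairs each join Il12rb1 at 96.3 TPM or more with a chain at 2.16 TPM or less.

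The IL-12 and IL-23 receptor chains were unequal. Il12rb1, the chain common to both receptors (chromosome 8, 70808449 to 70821424, plus strand), stood at 109, 96.3, 125 and 124 TPM, a mean of 113 ± 13.5 TPM (SD, n = 4), rank 1895 of the protein-coding genes. Replicate 2 was the lowest library and replicates 3 and 4 the highest. Il12rb2, the chain that completes the IL-12 receptor (chromosome 6, 67291318 to 67376188, minus strand), stood at 1.76, 1.57, 1.76 and 2.16 TPM, a mean of 1.81 ± 0.251 TPM, from 112, 96, 93 and 228 counts. Il12rb1 was 61.7, 61.5, 70.8 and 57.2 times Il12rb2 in replicates 1 to 4. The log2(TPM + 1) difference was -5.34 ± 0.12 for Il12rb2 minus Il12rb1 (SD, n = 4), and the 2 ranges did not overlap.

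Il23r, the chain that completes the IL-23 receptor, lay lower still (chromosome 6, 67422932 to 67491855, minus strand). It had 11, 0, 0 and 12 counts in replicates 1 to 4, or 0.264, 0, 0 and 0.174 TPM. Replicates 1 and 4 held all of its counts, although replicates 1 and 2 were of similar depth, with 58522696 and 53569919 fragments. The 23 fragments correspond to an exact Poisson 95% interval of 0.0785 to 0.186 TPM over the libraries together. Il12rb1 was 412 times Il23r in replicate 1 and 712 times in replicate 4, and at least 1291-fold and 1440-fold higher in replicates 2 and 3. Il12rb2 and Il23r lie on the same strand with 46.7 kb and no protein-coding gene between them, and in log2(TPM + 1) Il12rb2 lay 1.35 ± 0.15 above Il23r (SD, n = 4), in 4 of 4 libraries. At these levels the pseudocount sets the value: with 0.1 in place of 1, Il23r minus Il12rb2 was -3.42, and in TPM itself Il12rb2 was 6.68 and 12.5 times Il23r in replicates 1 and 4 and at least 20.98-fold and 20.33-fold higher in replicates 2 and 3.

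In order of mean level, each member lay above the next in 4 of 4 libraries, with no overlap of ranges, for 8 of the 9 neighbouring pairs. The pair that did not separate was Il23r and Il12a, with a difference in log2(TPM + 1) of 0.04 ± 0.21 (SD, n = 4): Il23r was the higher in 1 of 4 libraries, and both had 0 counts in replicate 3. The closest pair that did separate was Lif and Il12rb1, at 0.30 ± 0.15. That order turned when the length of the longest protein-coding transcript was used, with Il12rb1 at 118 TPM and Lif at 110.2 TPM. Without length the order of the upper members also turned: Lif led at a mean of 176.6 CPM, before Il12rb1 at 135.1 and Ebi3 at 113.0 CPM, and Il6ra at 68.9 CPM passed Il27ra at 66.1 CPM. No member's exons overlapped those of another gene on the same strand. On the opposite strand, exons of Il12rb2 overlapped those of Serbp1, and exons of Il27ra those of Palm3. Ebi3 overlapped Gm16712 and Il6ra overlapped Gm42809 in the same way. Whether reads from the opposite strand entered the counts of these members was not tested.

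No member was called as differing between libraries by more than genes of like abundance. The edgeR fit over 13681 genes tested 8 of the 10, since Il12a and Il23r fell under its count filter, and called 0 of them at an adjusted p under 0.05, with 0 at an unadjusted p under 0.05. Of all genes tested, 94 were called, or 0.687%, and 959 had an unadjusted p under 0.05, or 7.01%. A further measure, DESeq2, gave 43 dispersion outliers among the same 13681 genes, with 0 members among them. At so small a share, 0 of 8 members says little about them. The smallest unadjusted p of a member was 0.112, for Il12rb1 (edgeR adjusted p = 0.911), and the largest was 0.853, for Il27ra. With no count filter Il23r gave an unadjusted p of 0.0320 (edgeR adjusted p = 0.865 over 23575 genes). The SD was 4.91% of the mean for Ebi3, 6.18% for Il27ra, 6.29% for Lif, 10.2% for Il6ra, 10.3% for Il6st, 11.9% for Il12rb1, 13.8% for Il12rb2 and 42.3% for Il23a, beside a median of 7.94% over the protein-coding genes at 1 TPM or more in every library.

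**Figure D4:**
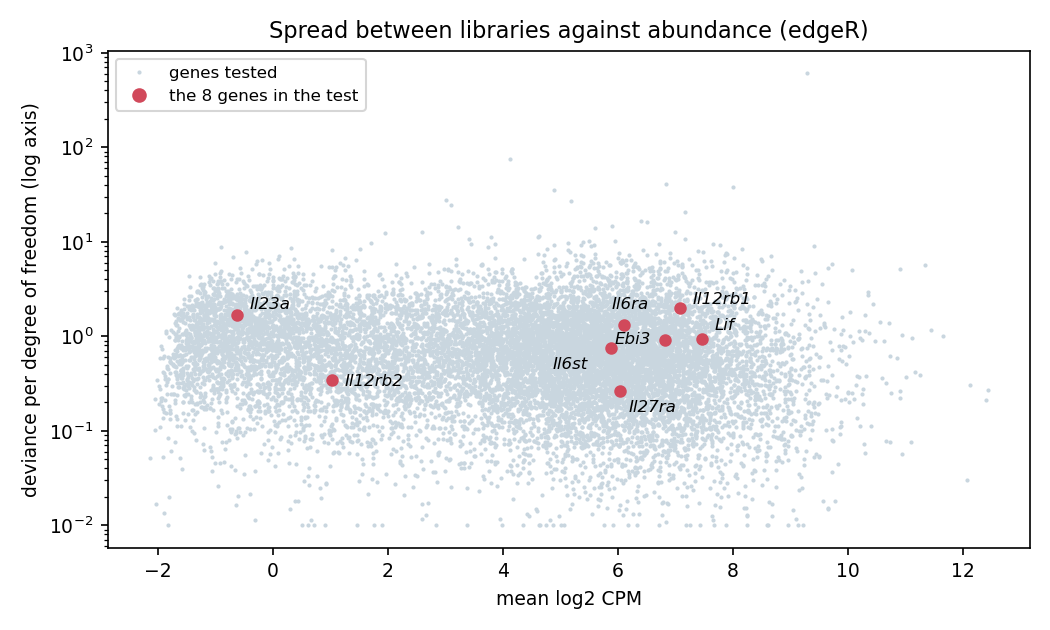
Deviance per degree of freedom of each gene about its mean over the 4 libraries (log axis, with values under 0.01 drawn at 0.01) against its mean log2 CPM, for 13681 genes in the edgeR fit; red points are the 8 members in the fit. The members lie within the cloud of genes of their own abundance, Il12rb1 highest and Il27ra lowest.

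The protein-coding genes with the most similar profile over the 4 libraries were named for 2 members, by the smallest root mean square difference in centred log2(TPM + 1). For Ebi3, the member of highest level, they were Nr1d1, Actr5 and Gpr180, at 0.00453, 0.00488 and 0.00615, beside a median of 0.118 over 10753 genes. For Il12rb1, the detected member of largest SD on that scale, they were Klf12, Lrrc8a and Snx29, at 0.00790, 0.00921 and 0.0196, beside a median of 0.154. Mean levels were 2.065, 28.47 and 24.15 TPM for Nr1d1, Actr5 and Gpr180. For Klf12, Lrrc8a and Snx29 they were 4.586, 4.858 and 1.893 TPM. The pseudocount of 1 shrinks relative changes at the lowest of these levels, so a small difference there need not mean an equal relative profile. The points are 4 libraries of 1 group, and the measure is a description only.

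The other genes of the pathway were read from lists chosen by name, 49 genes in all. Of these, 30 reached 1 TPM in every library, beside 49.4% of all protein-coding genes. That share is the background for this count and for the list counts below, and none was tested against it. Of 8 listed ligand genes of the gp130 family 2 reached 1 TPM in every library, Osm as above and Clcf1 at 9.17 ± 0.851 TPM. Clcf1 encodes the ligand cardiotrophin-like cytokine factor. Il6 stood at 0.245, 0.0765, 0.148 and 0.0593 TPM, from 10, 3, 5 and 4 counts. In every library Il6 lay below both chains of its receptor. Il31, listed with these ligands although its receptor chain is gp130-like and not gp130 itself, had 0 counts in all libraries.

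Signal transduction genes were abundant. Of 9 kinase, STAT and adaptor genes 7 reached 1 TPM in every library. The kinases that gp130 and the IL-12 receptor chains bind stood at 183 ± 12.3 TPM for Jak1, 353 ± 31.6 TPM for Jak2 and 65.2 ± 5.58 TPM for Tyk2. Stat3, the main STAT of gp130 and IL-23R, stood at 162 ± 13.6 TPM, and Stat4, that of IL-12Rβ2, at 109 ± 7.62 TPM. Ptpn11, the phosphatase SHP2 that docks on gp130, stood at 183 ± 19.8 TPM. The adaptor genes Gab1 and Gab2 did not reach 1 TPM in every library, with means of 0.106 and 0.934 TPM. Il12rb2 was thus 1.81 TPM beside a Stat4 level of 109 TPM in the same libraries.

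All 6 inhibitor genes reached 1 TPM in every library. Socs3, the feedback inhibitor that binds gp130, was the lowest at 4.66 ± 0.652 TPM, beside 106 ± 7.45 TPM for Socs1 and 143 ± 8.61 TPM for Cish. The phosphatase genes Ptpn6 and Ptpn2 stood at 605 ± 21.3 and 48.4 ± 2.45 TPM and the STAT3 inhibitor gene Pias3 at 18.7 ± 1.31 TPM. All 3 protease genes did as well: Adam10 at 213 ± 23.3 TPM and Adam17 at 59.0 ± 4.95 TPM, whose products can release the IL-6 receptor from the membrane, and the convertase gene Furin at 119 ± 7.52 TPM.

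Genes linked to the STATs were mixed. Of 9 STAT3-linked genes 6 reached 1 TPM in every library, among them the AP-1 family gene Batf at 278.5 ± 30.6 TPM, the kinase gene Pim1 at 107 ± 13.6 TPM, Fosl2 at 37.4 ± 6.48 TPM, Rora at 17.2 ± 2.77 TPM and Bcl3 at 13.2 ± 1.02 TPM. Il21, Il10 and Maf did not. Of 7 STAT4-linked genes 5 reached that level, none above 6.52 TPM in any library. They were the IL-18 receptor genes Il18r1 at 5.16 ± 1.08 TPM and Il18rap at 4.60 ± 0.645 TPM, Gadd45g at 4.23 ± 0.828 TPM, the Th1 factor gene Tbx21 at 3.92 ± 0.869 TPM and Hlx at 2.49 ± 0.252 TPM. Ifng, the interferon-γ gene, stood at 2.94, 0.908, 0.444 and 0.639 TPM in replicates 1 to 4, highest in replicate 1. In the edgeR fit 33 of the 49 pathway genes were tested and 0 were called at an adjusted p under 0.05, with 5 (15.2%) at an unadjusted p under 0.05, beside 7.01% of all genes tested. Fosl2, Batf, Pim1 and Rora were among the 5, the smallest p being that of Fosl2 (unadjusted p = 0.00352, edgeR adjusted p = 0.189).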

How the data were processed

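RNA of 4 T-cell libraries was measured. The authors deposited unnormalized fragment counts, 1 table per library. Per the file headers, the authors counted pairs with featureCounts 1.4.6-p4 on the exons of GENCODE mouse release 13, on the reverse strand, with both ends aligned and no option for multimapping or overlapping reads. The labels give the build as mm10, and for the aligner no version is stated there.

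Symbols came from GENCODE mouse release 21 (50376 of 50600 identifiers matched), and TPM from the counts and the deposited exon lengths. Low values are given with 3 counts as the floor and 95% Poisson intervals, which cover counting error only. Spread between libraries was tested with edgeR 4.0.16, with DESeq2 1.42.0 as an alternative. The edgeR fit used TMM factors, filterByExpr, trended dispersion and an intercept only. Deviance was set against a chi-square on 3 degrees of freedom, with Benjamini-Hochberg adjustment over all genes. The fit was also run on counts simulated from its own trended dispersion, which cannot show whether its p-values hold for the real counts. The design planned a comparison of protein sequences, which was not run because no protein table was used here. The labels do not say which animal each library came from. By Xist and Ddx3y they cannot all come from 1 animal, but within replicates 1 and 2, and within 3 and 4, the spread behind the p-values may be technical.

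The members, lists and pairs were chosen with earlier results of these data known. Genes named are the members, the pathway genes at 1 TPM or more in every library or with 0 counts throughout, the genes of the pairs, and the 3 closest profiles of 2 members. A few listed genes are not reported here. Other genes were named after their values were seen. Alternative settings were a threshold of 0.5 or 5 TPM, a count of 10, TPM over protein-coding genes, a pseudocount of 0.1, CPM, other filters and dispersions, and leaving out each replicate. The length of the longest transcript was added after seeing the data. Python 3.11.15 and R 4.3.3 were used.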

Additional observations from a re-analysis of the deposited data

Results flagged for a closer look

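Among 52 reported genes of the 10 members and the pathway lists with any counts, 3 had 1 library whose distance from the nearest other took up nearly the whole range of the 4 (past Dixon's 95% critical value for 4 samples). Chance gives about 1 such gene in 20. Il23a stood at 1.458 TPM in replicate 4, beside 0.663 to 0.767 TPM in the other libraries. Furin stood at 130.7 TPM in replicate 3, beside 115.0 to 116.6 TPM. Cntfr stood at 0.0857 TPM in replicate 1, from 4 counts, beside 0 in the others. The cause was not tested for any of them.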

How the results depend on the processing

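Of the 10 members, 7 were at or above the threshold in every library; the number was 8 at 0.5 TPM or with a count of at least 10, 6 at 5 TPM, and 7 with TPM over protein-coding genes, with longest-transcript lengths and without each replicate in turn. For the 49 pathway genes the number ran from 23 at 5 TPM to 33 at 0.5 TPM. At 5 TPM no gene remained of the other gp130-family receptors or of the STAT4-linked list. All 13 pair differences kept their sign under each alternative, but the size of some moved by over 1.5 times. With a pseudocount of 0.1 these were 6 pairs: Il23r and Il12rb2, Il12a and Il12b, Il23a and Il12b, Il23a and Il12a, Lifr and Il6st, Osmr and Il6st. In log2 CPM with TMM factors, without length, they were 3: Il6ra and Il27ra against Il6st, and Il12a against Il12b. Longest-transcript lengths moved Il6ra against Il6st, and leaving out replicate 4 moved Il12a against Il12b. No member was called by edgeR under any of the alternatives run, while the count over all genes moved from 94 to 617 with a common dispersion and to between 38 and 87 without 1 replicate, where fewer libraries enter. Without length, 6 of the 8 separated neighbours kept their order in every library: Ebi3 fell behind Lif and Il12rb1, and Il27ra behind Il6ra by the mean. With longest-transcript lengths 7 did. The longest-transcript lengths moved Ebi3 from 332 to 246 TPM, Lif from 140 to 110.2 TPM and Il6ra from 27.5 to 20.1 TPM, and TPM over protein-coding genes moved Ebi3 to 351 TPM. Depth limits Il12a, Il23r and Il23a most, with 12, 23 and 165 fragments over all libraries. No paired analysis was possible because the labels give 1 group; the pairs above are genes compared within each library.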
